A study of Rattus norvegicus with 62 samples.

Results

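The renin-angiotensin, endothelin, adrenomedullin, kinin and nitric oxide systems were followed through 10 member genes: Agt, Ace, Agtr1a, Edn1, Ece1, Ednra, Ednrb, Adm, Bdkrb2 and Nos3. The members were taken by name, as every probe set of the array whose platform annotation gives exactly 1 gene and that gene is listed. Of the 10 genes, 8 had such a probe set and 12 probe sets were found among the 31042 of the array that are not controls. Ednra and Ednrb, the type A and type B endothelin receptors, had none under this rule and were not analysed here. Each probe set combines the brightness of several short probes against the same transcript, and 10 of the 12 passed the filter on dim probe sets (a mean level of at least 5.03 log2, the 40th percentile of all probe sets). The other 2, a second Ace probe set (1370028_at) and another Bdkrb2 probe set (1370650_s_at), had means of 3.32 and 3.41 and were not tested.

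Affymetrix rat arrays were hybridised with RNA from the hearts of male rats of the outbred Wistar strain, which had been dosed by mouth every day for 14 days. The drug, rosiglitazone, is a thiazolidinedione used in diabetes and an agonist of the nuclear receptor PPAR gamma. The arrays fall into 12 groups by dose and by time after the last dose. Vehicle had 4, 6, 5 and 5 arrays at 6, 24, 168 and 336 h, 10 mg/kg/day had 5, 5, 5 and 6, and 80 mg/kg/day had 5, 5, 6 and 5, which makes 62 in all. The rats' age is not given in the labels, nor do they say that every sample is a separate animal. The p-values therefore rest on the spread between samples, part of which may be technical.

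These genes set the tone and permeability of blood vessels. Angiotensinogen (Agt) is cut by renin to angiotensin I, which angiotensin-converting enzyme (Ace) turns into angiotensin II, a constrictor that acts on the type 1 receptor (Agtr1a). Big endothelin, made from Edn1, is cut by endothelin-converting enzyme (Ece1) to endothelin-1, a strong constrictor released by endothelium. Adrenomedullin (Adm), bradykinin through its B2 receptor (Bdkrb2), and nitric oxide made by the endothelial synthase (Nos3) act the other way and relax the vessel wall, and Ace also breaks down bradykinin. In the heart these systems are known from coronary flow, growth of cardiomyocytes, fibrosis and fluid balance, and fluid retention is a known effect of thiazolidinediones.

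In these hearts the calls followed sampling time, in each of the 3 doses. Nos3 and Ece1 were higher at 336 h than at the earlier times, by 0.72 to 0.93 and by 0.77 to 0.79 on the log2 scale across the doses, and these 6 differences passed the test in a contrast added after the levels were seen. In the same contrast 12.4% of all probe sets passed in vehicle, 14.6% at 10 mg/kg and 9.83% at 80 mg/kg, so a call there does not set a gene apart. Of the 6 calls, 4 were lost with the signals as deposited. When the arrays were clustered over all tested probe sets, the 16 arrays of 336 h fell together with 5 earlier arrays. With these clusters of arrays, drawn from the same signals, as a block 0 of the 6 passed, where 0.0644% to 0.365% of all probe sets did. For rosiglitazone, 0 of the 10 probe sets passed the test at either dose at any time, with adjusted p-values of at least 0.479, where 0% to 0.29% of all probe sets passed against vehicle, so a count of 0 says little about these genes. The largest differences against vehicle were −0.96 for Ace at 80 mg/kg at 336 h and −0.92 for Bdkrb2 (1371120_s_at) at 80 mg/kg at 6 h, both on the log2 scale. These 2 probe sets had means of 5.43 and 5.42 log2, not far above the filter at 5.03. The Ace difference was −0.45 without 1 of the treated arrays.

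The upstream sequences of Nos3 and Ece1 are shown because both were called higher at 336 h. Each is the 250 bases before the gene's start in RefSeq's annotation of build GRCr8, read 5′ to 3′ on the gene's strand. Nos3 lies on the minus strand at chr4:11706582-11706831 and Ece1 on the plus strand at chr5:155360781-155361030. Capitals mark GGGCGG or its reverse complement CCGCCC, a GC box of the kind that Sp1 binds.
Nos3: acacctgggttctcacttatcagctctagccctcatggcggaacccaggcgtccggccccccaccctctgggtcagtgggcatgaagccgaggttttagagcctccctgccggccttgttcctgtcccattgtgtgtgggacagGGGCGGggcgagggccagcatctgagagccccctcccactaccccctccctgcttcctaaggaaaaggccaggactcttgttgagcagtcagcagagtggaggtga
Ece1: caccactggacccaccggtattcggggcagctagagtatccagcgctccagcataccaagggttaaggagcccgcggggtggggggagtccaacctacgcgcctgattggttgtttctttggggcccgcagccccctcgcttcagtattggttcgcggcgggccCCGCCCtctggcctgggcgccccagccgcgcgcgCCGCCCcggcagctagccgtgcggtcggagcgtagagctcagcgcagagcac
The Nos3 window holds 1 such box, from 106 to 101 bases before the start, and the Ece1 window holds 2, from 86 to 81 and from 52 to 47 bases before the start. Promoters in the table matched 6 members (Ace, Agtr1a, Edn1, Adm, Nos3 and Ece1), and 5 of these 6 windows hold a GC box, against 30.5% of 33469 promoters of this length. The 6 windows are also richer in G and C, at 56.4% to 69.2% against a median of 51.2% over all promoters, and the motif consists of these bases, so the counts were not compared at equal composition. The core letters bound by nuclear receptors, AGGTCA or TGACCT, occur once among the 6, in Agtr1a from 20 to 15 bases before the start, against 14.1% of all promoters. Neither an E-box, CACGTG, which 5.59% of all promoters hold, nor 2 copies of AGGTCA on the same strand with 1 base between them, the arrangement bound by PPAR gamma with its partner RXR, which 0.0508% hold, was found in the 6 windows. All searches covered both strands, boxes may overlap each other, and a match is a description of letters only.

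The deposited signals had no common scale, since their trimmed mean differed up to 2.96 times between arrays, so all levels below are log2 signals after quantile normalization. Cardiomyocyte markers (Tnnt2, Myh6, Tnni3, Myl2 and Myl3) averaged between 13.6 and 14.1 log2, which matches the labelled tissue. Myl7, an atrial myosin light chain, was above 9 log2 on 2 of 5 arrays at 80 mg/kg and 6 h, 3 of 5 at 80 mg/kg and 24 h, 4 of 5 at 10 mg/kg and 6 h, and 1 of 4 in vehicle at 6 h. On the first 2 principal components of all tested probe sets the arrays fell into 3 clusters of 21, 21 and 20. The second cluster held every one of the 16 arrays of 336 h and 5 earlier arrays, and within each of the earlier times the arrays were spread over at least 2 clusters. The log2 difference between the 3′ and 5′ hexokinase control probe sets, a measure of RNA integrity, lay between 1.38 and 1.97 in the first cluster, between 1.42 and 2.45 in the second and between 2.09 and 6.08 in the last.

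**Figure D1:**
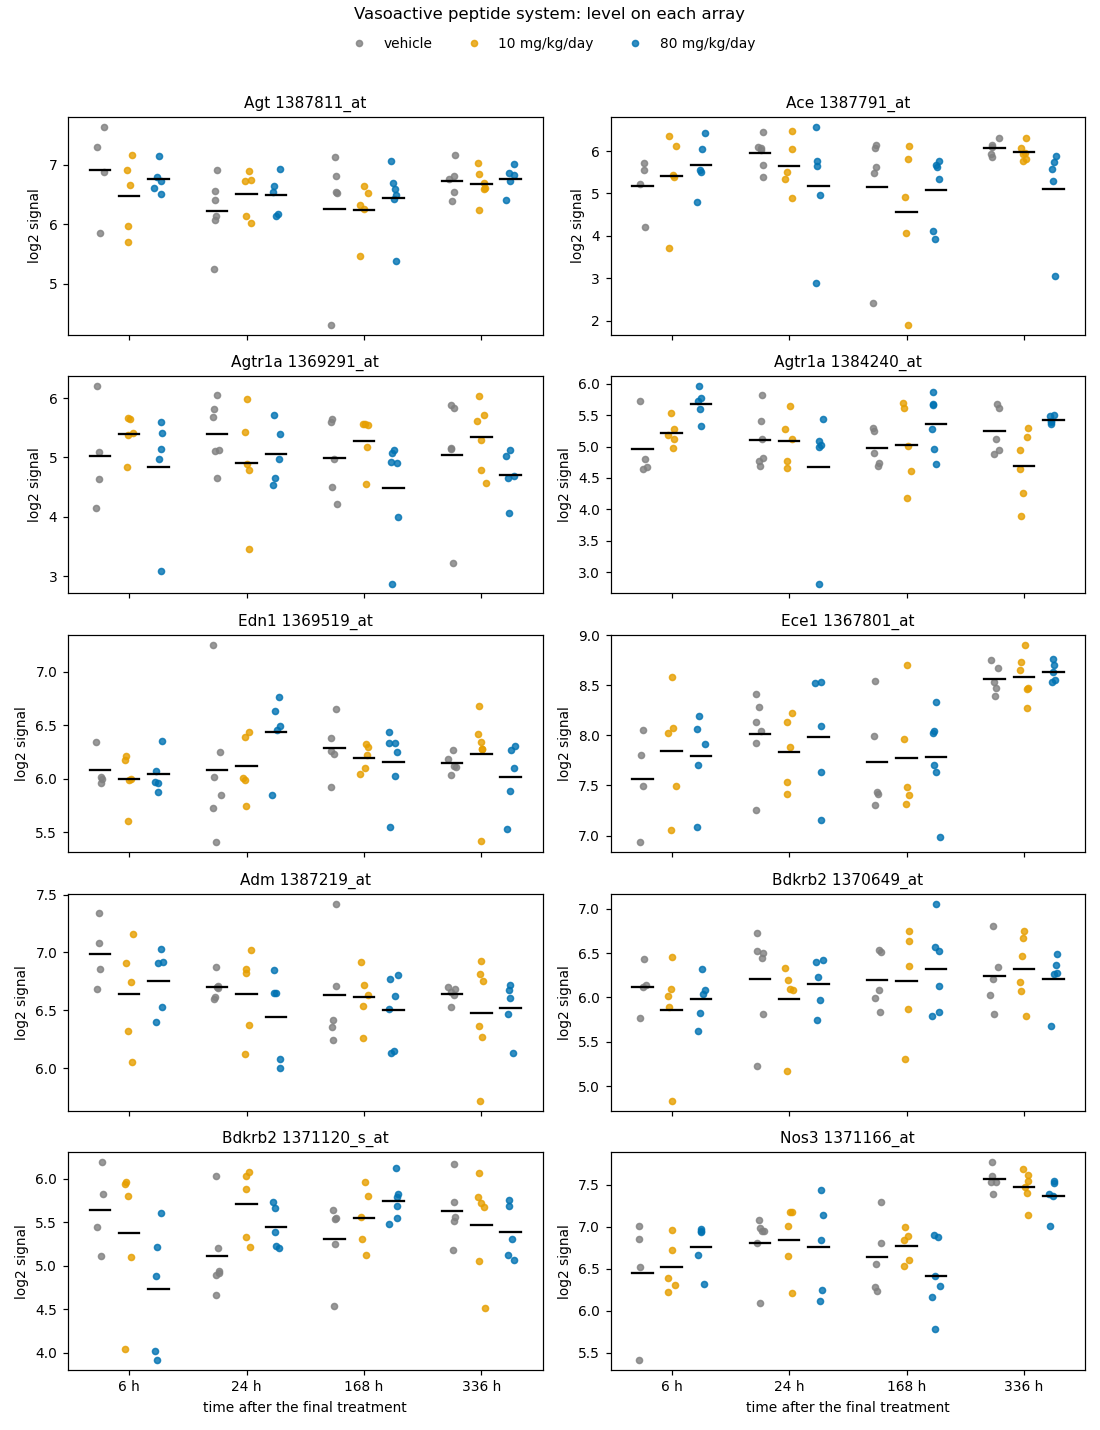
Level of the 10 tested probe sets (vertical axes, log2 signal after quantile normalization) on each of the 62 arrays, by time after the last dose and by dose (vehicle grey, 10 mg/kg orange, 80 mg/kg blue). Points are arrays and bars are group means. Nos3 and Ece1 stand higher at 336 h in all doses, while the 3 doses overlap at nearly every time in all panels.

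The first question was whether rosiglitazone changed these genes at either dose. With 80 mg/kg against vehicle, 0 of 10 probe sets passed limma's test at 6, 24, 168 and 336 h, against 0.0537%, 0.14%, 0.0537% and 0.29% of the 18625 probe sets tested. With 10 mg/kg against vehicle the members' count was likewise 0 at the 4 times, where the share of all probe sets called was 0%, 0%, 0% and 0%. Between 80 and 10 mg/kg it was 0 at the 4 times too, against 0%, 0.0107%, 0.0376% and 0.102%. Averaged over the 4 times, the effect of 80 mg/kg passed for 0 members against 0.478% of all probe sets, and that of 10 mg/kg for 0 against 0.0107%. With so few probe sets called over the whole array, a list of 10 would hold hardly any call, and the members' counts do not set them apart.

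At an unadjusted p under 0.05 the members gave 5 of 120 pairwise tests, or 4.17%, against 5.47% of all such tests over the array. The effect of dose was also compared between times. The F test of limma for a dose effect that differs between times called 0 of 10 members for 80 mg/kg (0.0215% of all probe sets) and 0 for 10 mg/kg (0% of all). At an unadjusted p under 0.05 it held 1 of 10 members for 80 mg/kg, Bdkrb2 1371120_s_at, against 7.3% of all probe sets. For 10 mg/kg it held 0 against 4.7%, so these counts do not set the members apart. For that probe set limma gave an adjusted p of 0.552. Averaged over the times, the 95% intervals reached 0.21 to 0.60 to either side of the estimate, and for single times 0.39 to 1.28. These intervals are not adjusted for the number of tests, and a call needed more than an interval that leaves out 0.

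**Figure D2:**
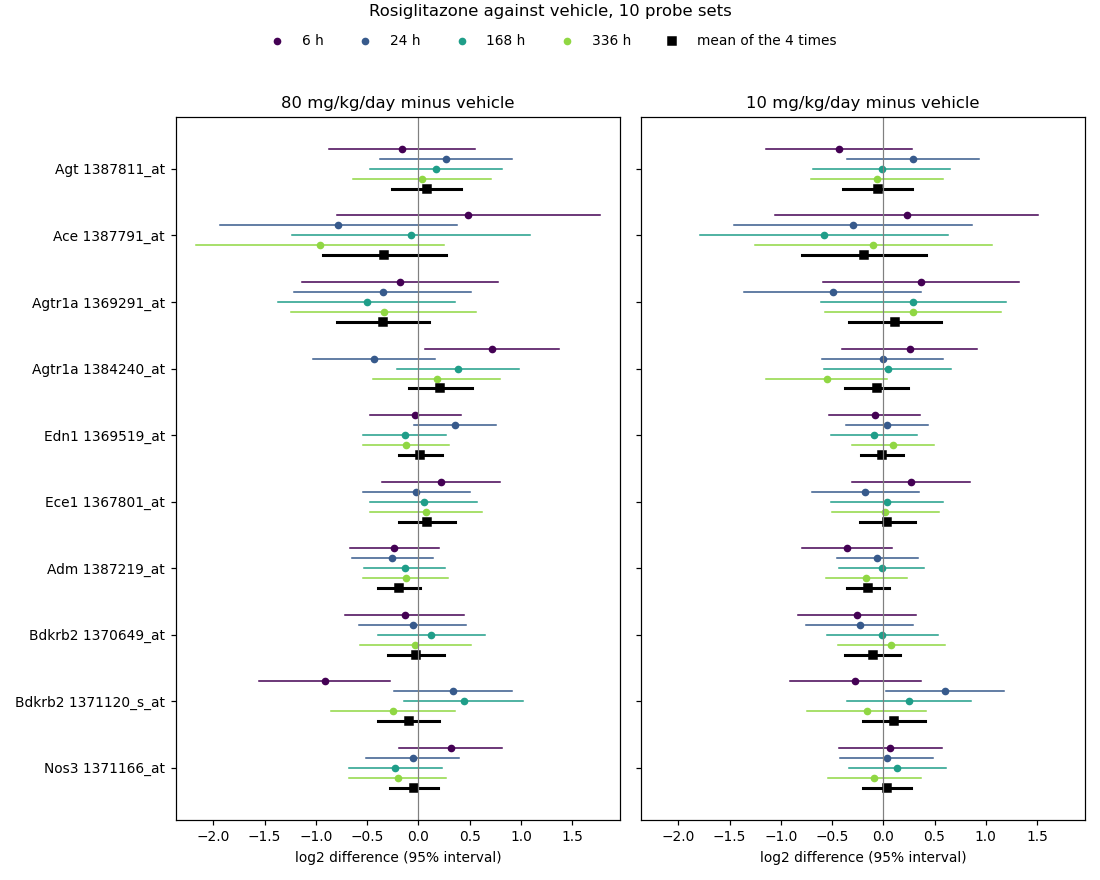
Log2 differences of 80 mg/kg (left) and 10 mg/kg (right) minus vehicle with 95% intervals (horizontal axis) for the 10 probe sets. Circles are single times and black squares the mean of the 4 times. All 20 squares have intervals that cover 0, and of the single times the intervals of 3 leave it out: Agtr1a 1384240_at and Bdkrb2 1371120_s_at at 80 mg/kg and 6 h, and Bdkrb2 1371120_s_at at 10 mg/kg and 24 h.

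Agt, the precursor of the angiotensins, had a mean effect of 0.08 (95% interval −0.26 to 0.41) at 80 mg/kg and of −0.06 (−0.39 to 0.28) at 10 mg/kg, log2, over the 4 times. At 6 h its level was 6.61, 6.51, 7.14, 6.80 and 6.73 log2 at 80 mg/kg, against 5.85, 6.87, 7.31 and 7.63 in vehicle. The 5 treated arrays lay closer together, inside the range of the vehicle arrays. Its lowest value of all was 4.31, on 1 vehicle array of 168 h, where the other vehicle arrays lay at 6.53 or above.

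Ace, the converting enzyme, varied more between arrays of a group than nearly every other probe set, with a residual SD of 0.97 log2 at the 98.3rd percentile of all tested. At 336 h its level (1387791_at) was 5.29, 5.75, 5.89, 3.05 and 5.58 log2 at 80 mg/kg, against 6.32, 5.87, 6.15, 5.93 and 6.09 in vehicle. The treated arrays were the lower ones, with 1 of them at 3.05 far below, and the groups met at 5.89 and 5.87. The difference of −0.96 (95% interval −2.17 to 0.25) did not pass limma's test (adjusted p = 0.847), and it was −0.45 without the array at 3.05.

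At 24 h Ace had 2.89, 5.66, 5.76, 4.96 and 6.56 log2 at 80 mg/kg, against a lowest of 5.38, a median of 6.05 and a highest of 6.44 in vehicle. The treated arrays spread on both sides of the vehicle arrays. The difference was −0.78 (95% interval −1.94 to 0.38), it was −0.21 without the array at 2.89, and without the arrays with Myl7 above 9, which leaves 2 treated arrays, it was 0.16. Averaged over the times, Ace differed by −0.33 (−0.93 to 0.27) at 80 mg/kg and −0.19 (−0.79 to 0.42) at 10 mg/kg. Single arrays carry much of these means: the 80 mg/kg effect was −0.19 without the 24 h array at 2.89 and −0.50 without a vehicle array of 168 h at 2.41, and the 10 mg/kg effect ran from −0.36 to −0.02 on leaving out 1 array.

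Agtr1a, the angiotensin receptor, was read by 2 probe sets, both just above the filter with means of 5.04 (1369291_at) and 5.12 (1384240_at) log2. Their mean effects of 80 mg/kg had opposite signs, −0.34 (95% interval −0.79 to 0.10) for 1369291_at and 0.21 (−0.10 to 0.52) for 1384240_at. At 10 mg/kg they were 0.12 (−0.33 to 0.56) and −0.07 (−0.37 to 0.24), again with opposite signs.

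At 6 h Agtr1a 1384240_at had 5.78, 5.60, 5.33, 5.72 and 5.96 log2 at 80 mg/kg, against 4.67, 5.73, 4.81 and 4.64 in vehicle. The treated arrays were higher than 3 of the 4 vehicle arrays, and the fourth, at 5.73, lay among them. The difference of 0.72 (0.06 to 1.37) had an unadjusted p of 0.0327 and an adjusted p of 0.722 in limma. At the same time 1369291_at had 5.14, 3.08, 5.60, 4.97 and 5.42 log2 at 80 mg/kg, against 4.64, 5.10, 4.15 and 6.21 in vehicle. The groups overlapped, with the lowest array in the 80 mg/kg group and the highest in the vehicle group. At 24 h both probe sets were lower on average at 80 mg/kg than in vehicle, with differences of −0.35 (−1.21 to 0.51) for 1369291_at and −0.43 (−1.03 to 0.16) for 1384240_at, the second of which was 0.03 without the array at 2.82.

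At 336 h Agtr1a 1384240_at had 5.51, 5.35, 5.40, 5.41 and 5.48 log2 at 80 mg/kg, against a lowest of 3.89, a median of 4.79 and a highest of 5.30 at 10 mg/kg. Vehicle arrays of that time had 4.88, 5.62, 4.95, 5.68 and 5.12. The arrays of 80 mg/kg lay above all 6 of 10 mg/kg, which was the 1 pair of groups without overlap among the 120 of the members. At this comparison 0.773% of all probe sets were without overlap, and over the 12 comparisons from 0.365% to 2.52%. The count of 1 does not set the members apart. The difference of 0.73 (0.14 to 1.32) had an adjusted p of 0.999 in limma, and the 80 mg/kg arrays lay inside the range of the vehicle arrays.

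Edn1, the endothelin precursor, had a mean effect of 0.02 (95% interval −0.19 to 0.23) at 80 mg/kg and −0.01 (−0.22 to 0.20) at 10 mg/kg. Its largest difference was at 24 h, where the level was 6.77, 6.63, 5.85, 6.50 and 6.46 log2 at 80 mg/kg, against a lowest of 5.41, a median of 5.93 and a highest of 7.25 in vehicle. Of the treated arrays 4 were above the vehicle median, but 1 vehicle array was higher than all of them. That difference of 0.36 (−0.04 to 0.76) had an adjusted p of 0.507 in limma. It was 0.59 without the vehicle array at 7.25 and 0.22 without the one at 5.41, with adjusted p-values of 0.128 and 0.809. Ece1, which releases endothelin-1, had mean effects of 0.08 (−0.19 to 0.35) at 80 mg/kg and 0.04 (−0.23 to 0.31) at 10 mg/kg.

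Adm, the adrenomedullin precursor, had the smallest p of the members for the mean effect of 80 mg/kg, at −0.19 (95% interval −0.39 to 0.02, adjusted p = 0.585 in limma). At 10 mg/kg it was −0.15 (−0.35 to 0.06). At 24 h its level was 6.65, 6.85, 6.65, 6.07 and 6.00 log2 at 80 mg/kg, against a lowest of 6.60, a median of 6.70 and a highest of 6.87 in vehicle. The 80 mg/kg mean was below that of vehicle at all 4 times, at 6.76, 6.44, 6.50 and 6.52 log2 against 6.99, 6.70, 6.63 and 6.64 in vehicle, and the arrays overlapped at each.

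Bdkrb2, the bradykinin receptor that tissues carry at rest, was read by 2 tested probe sets with different patterns. For 1370649_at the mean effect was −0.02 (95% interval −0.29 to 0.25) at 80 mg/kg and −0.10 (−0.37 to 0.17) at 10 mg/kg. For 1371120_s_at it was −0.10 (−0.40 to 0.20) and 0.10 (−0.20 to 0.40).

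At 6 h Bdkrb2 1371120_s_at had 5.21, 4.88, 5.61, 3.92 and 4.02 log2 at 80 mg/kg, against 5.82, 5.45, 6.19 and 5.11 in vehicle. All 5 treated arrays were below the vehicle mean of 5.64, and 2 of them lay within the vehicle range. The difference of −0.92 (−1.56 to −0.27) had the smallest p of the 120 pairwise tests, 0.00599 unadjusted and 0.479 adjusted in limma. At 10 mg/kg the 6 h arrays read 5.80, 5.94, 5.96, 5.10 and 4.04, from which 80 mg/kg differed by −0.64 (−1.25 to −0.04), and by −0.97 without the 10 mg/kg array at 4.04. The other probe sets of the gene were also lower on average at 80 mg/kg and 6 h than in vehicle, 1370649_at with a difference of −0.14 (−0.71 to 0.44) and the dim 1370650_s_at with 3.25 ± 1.10 at 80 mg/kg (SD, n = 5) and 3.67 ± 1.17 log2 in vehicle (SD, n = 4), both within their spread.

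The sign of Bdkrb2 1371120_s_at was not held over time. Its differences from vehicle at 6, 24, 168 and 336 h were −0.92, 0.34, 0.44 and −0.25 at 80 mg/kg. At 10 mg/kg they were −0.27, 0.60, 0.25 and −0.16. At 24 h Bdkrb2 1371120_s_at had 5.21, 6.08, 5.33, 6.03 and 5.88 log2 at 10 mg/kg, against a lowest of 4.66, a median of 4.92 and a highest of 6.03 in vehicle. All 5 arrays of 10 mg/kg were above the vehicle mean of 5.11 and 1 vehicle array lay among them. That difference was 0.60 (0.02 to 1.18, adjusted p = 0.848 in limma), and 1370649_at differed by −0.23 there.

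Nos3, the endothelial nitric oxide synthase, had a mean effect of −0.04 (95% interval −0.28 to 0.19) at 80 mg/kg and 0.04 (−0.20 to 0.27) at 10 mg/kg. At 336 h its level was 7.54, 7.36, 7.39, 7.01 and 7.52 log2 at 80 mg/kg, against 7.61, 7.77, 7.39, 7.53 and 7.54 in vehicle. At 10 mg/kg the 6 arrays of that time ran from 7.14 through a median of 7.51 to 7.69. The 3 doses overlapped, and 4 of the 5 arrays of 80 mg/kg lay below the vehicle median of 7.54.

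Whether probe sets of the same gene rose and fell together was described within each array cluster, with Pearson's r and Spearman's rho over 20 or 21 arrays and 100000 permutations for each of 12 relations. For Agtr1a, r was −0.07, −0.04 and −0.18 in the 3 clusters, and rho −0.01, −0.08 and −0.06. For Bdkrb2, r was −0.01, −0.30 and −0.03, and rho −0.01, −0.37 and 0.04. For Ace with its dim probe set, r was 0.21, 0.31 and 0.28, and rho 0.26, 0.20 and 0.23. The permutation p-values of these 9 relations, adjusted over the 12, were at least 0.586, and r without the 2 farthest arrays ran from −0.33 to 0.47.

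**Figure D3:**
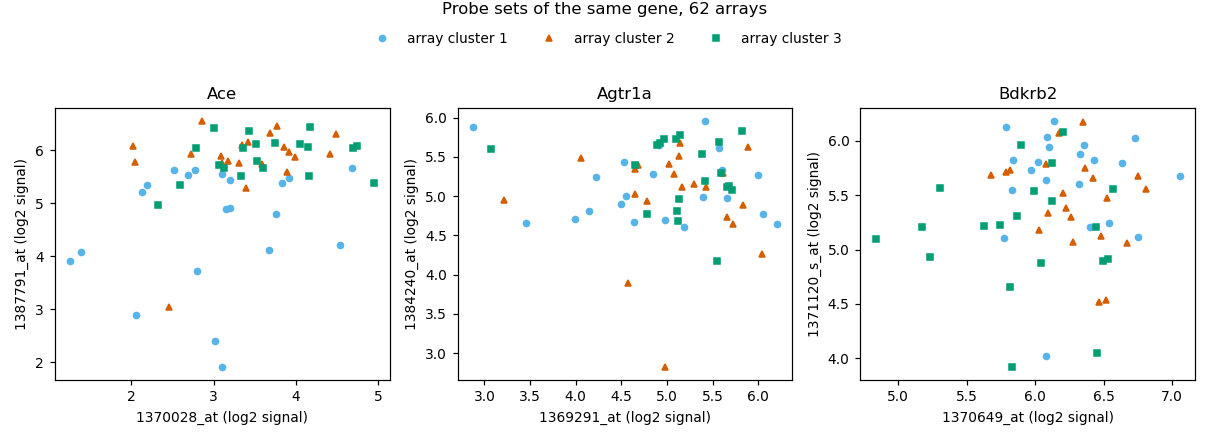
Levels of the paired probe sets of Ace, Agtr1a and Bdkrb2 (both axes, log2 signal) on 62 arrays, each point an array marked by its array cluster. Within the clusters r lay between 0.21 and 0.31 for Ace, between −0.18 and −0.04 for Agtr1a and between −0.30 and −0.01 for Bdkrb2.

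The second question was how these genes stood at the 4 sampling times, which vehicle arrays answer without the drug. In vehicle the F test of limma between times called 1 of 10 members, Nos3 (adjusted p = 0.00815), against 8.05% of all probe sets. Within 10 mg/kg it also called Nos3 alone (adjusted p = 0.0186), against 7.17%, and within 80 mg/kg Nos3 alone (adjusted p = 0.0325), against 5.77%. Ece1 missed the threshold in each, with adjusted p-values of 0.0550, 0.0687 and 0.0841. The counts of 1 in 10 are near the share over the array.

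Nos3 had 6.52, 7.01, 6.86 and 5.42 log2 in vehicle at 6 h, and from 6.09 through a median of 6.95 to 7.09 at 24 h. At 168 h the vehicle arrays had 6.81, 6.29, 7.30, 6.56 and 6.23. All 5 vehicle arrays of 336 h, at 7.39 to 7.77, lay above all 15 earlier ones. The group means in vehicle were 6.45, 6.81, 6.64 and 7.57 at 6, 24, 168 and 336 h.

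Under the drug 336 h was again the highest of the 4 times, while the order of the earlier times differed at 80 mg/kg. At 10 mg/kg the means of Nos3 were 6.52, 6.84, 6.77 and 7.48 log2, and at 80 mg/kg 6.77, 6.76, 6.41 and 7.36, at 6, 24, 168 and 336 h. SDs within these groups ran from 0.14 at 336 h in vehicle to 0.72 at 6 h in vehicle. Among the first 3 times Nos3 was not called in any dose. With the 336 h arrays left out, the joint F test of limma between 6, 24 and 168 h gave adjusted p-values of at least 0.795. It called 28, 25 and 77 of all probe sets tested in vehicle, 10 and 80 mg/kg, so a missing call says little about Nos3.

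Ece1 had 8.53, 8.47, 8.39, 8.75 and 8.67 log2 at 336 h in vehicle, against 8.0, 7.41, 8.54, 7.31 and 7.43 at 168 h. The 336 h arrays lay above 4 of the 5 at 168 h, and the fifth, at 8.54, lay among them. Group means at 6, 24, 168 and 336 h were 7.57, 8.01, 7.74 and 8.56 in vehicle, 7.84, 7.83, 7.77 and 8.58 at 10 mg/kg, and 7.79, 7.99, 7.79 and 8.64 at 80 mg/kg. The last time was the highest in each dose.

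A contrast of 336 h with the mean of the 3 earlier times was added after these levels were seen, so it describes the step and is not independent evidence of it. It called 2 of 10 members, Nos3 and Ece1, in each dose, against 12.4% of all probe sets in vehicle, 14.6% at 10 mg/kg and 9.83% at 80 mg/kg. For Nos3 the difference was 0.93 (95% interval 0.55 to 1.32, adjusted p = 0.00117) in vehicle, 0.76 (0.40 to 1.13, adjusted p = 0.00298) at 10 mg/kg and 0.72 (0.33 to 1.10, adjusted p = 0.0113) at 80 mg/kg in limma, or 1.91, 1.70 and 1.64 times. For Ece1 it was 0.79 (0.35 to 1.24, adjusted p = 0.0135), 0.77 (0.35 to 1.18, adjusted p = 0.00844) and 0.78 (0.34 to 1.22, adjusted p = 0.0164) in the same order of doses. With the signals as deposited the vehicle and 80 mg/kg calls were lost for both genes (adjusted p of 0.154 to 0.322), and those at 10 mg/kg were kept. On that scale 14, 7003 and 21 probe sets were called in vehicle, 10 and 80 mg/kg, and 6976 of the 7003 were higher. The other 8 probe sets had differences from −0.41 to 0.77 and adjusted p-values of at least 0.249.

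The 336 h arrays also differ from the rest in their place on the principal components, and this bears on both genes. Mean Nos3 was 6.33, 7.40 and 6.89 log2 in the 3 array clusters and mean Ece1 7.39, 8.55 and 8.13. Of the 46 earlier arrays 6 had more Nos3 than the lowest 336 h array, at 7.01, and 4 of these 6 were among the 5 that share its cluster. For Ece1 it was 8 of 46 above 8.28, of which 4 share the cluster. With the cluster as a block, the 336 h differences of Nos3 were 0.32, 0.18 and 0.19 in vehicle, 10 and 80 mg/kg. Those of Ece1 were 0.13, 0.13 and 0.21, and 0 of the 6 passed limma's test (adjusted p of at least 0.698). Under this block 0.0644%, 0.166% and 0.365% of all probe sets passed, in the same order of doses. The clusters were drawn from these same signals and only 5 earlier arrays share that of 336 h, so the count of 0 says little about these genes.

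Within the cluster that holds the 336 h arrays, Nos3 averaged 7.47 ± 0.19 log2 at 336 h (SD, n = 16) and 7.19 ± 0.20 on the 5 earlier arrays. The difference was 0.28. Ece1 averaged 8.59 ± 0.16 at 336 h (SD, n = 16) and 8.43 ± 0.15 on the earlier arrays, a difference of 0.16. As both genes were taken for being higher at 336 h, these values are a description with no test. These arrays mix the 3 doses. Sampling time and what placed the 336 h arrays together cannot be told apart in this design.

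**Figure D4:**
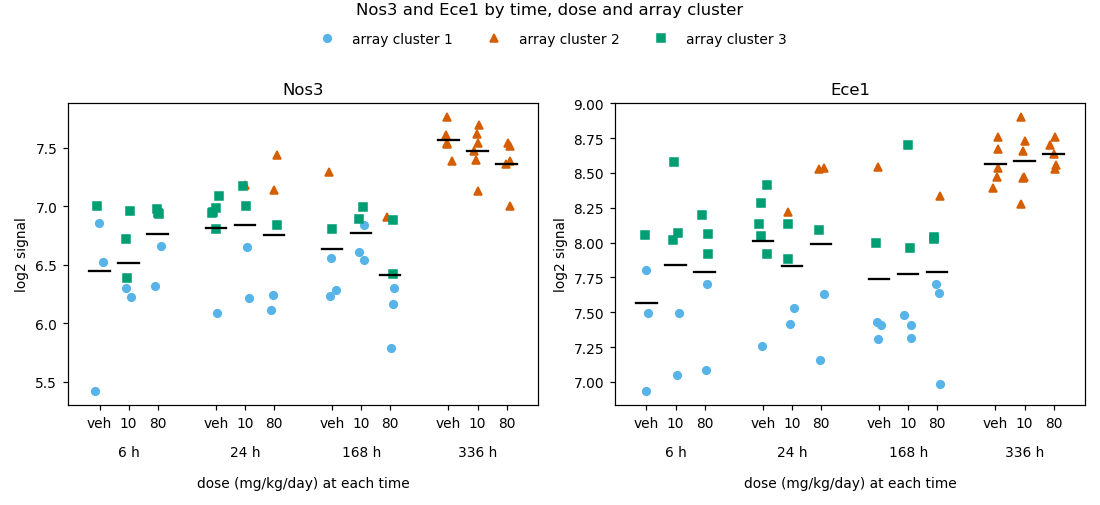
Nos3 (left) and Ece1 (right) on each array (vertical axes, log2 signal) by dose within each time after the last dose. Symbols give the array cluster and bars the group mean. All 16 arrays of 336 h are in cluster 2 (orange triangles), and the 5 earlier arrays of that cluster are the highest of their groups in both genes.

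Nos3 and Ece1 differed together between clusters, and within them the relation did not pass the test. Within the 3 clusters r between their levels was 0.55, 0.17 and −0.22, and rho 0.37, 0.16 and −0.02, with permutation p-values adjusted over the 12 relations of at least 0.105 for r. Without the 2 arrays farthest from the median in Nos3, r was 0.41, −0.01 and 0.10.

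Other vessel wall genes give the setting of this step. Of 10 endothelial markers measured, Eng, a coreceptor of TGF-beta on endothelium, was called higher at 336 h in all 3 doses and Kdr, a VEGF receptor, at 80 mg/kg, and 7, 8 and 9 of the 10 were higher in vehicle, 10 and 80 mg/kg. Calls in either direction were 1, 1 and 2 of 10, near the 12.4%, 14.6% and 9.83% of all probe sets, of which those called higher made up 4.96%, 6.36% and 3.94%. Kdr was also called higher for the mean effect of 80 mg/kg, where 0.478% of all probe sets were called. The mean of the list on single arrays ran from 8.82 to 9.05 log2 at 336 h and from 8.40 to 9.03 earlier. Of 6 smooth muscle and pericyte markers, Acta2 was called higher in all 3 doses and Pdgfrb at both drug doses. Calls were 1, 2 and 2 of 6 in vehicle, 10 and 80 mg/kg, beside the same shares of all probe sets. In the same order 4, 4 and 5 of the 6 were higher and the rest were not. The part of vessel cell content in the step of Nos3 and Ece1 was not tested, and in whole tissue more cells of a type and more RNA per cell cannot be told apart.

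Patterns over the 12 groups most like those of the members were ranked by Pearson's r over the 12 group means, among 14259 probe sets with 1 gene. For Nos3 they were Prr12 (r = 0.98), Ppp6r1 (r = 0.98), a subunit of protein phosphatase 6, and Capzb (r = 0.97), an actin capping subunit. For Ece1 they were Taf10 (r = 0.99), a subunit of TFIID, Tgfb1 (r = 0.99), the cytokine TGF-beta 1, and Pebp1 (r = 0.99), an inhibitor of Raf kinase. As many as 283 probe sets had r above 0.9 with Nos3 and 509 with Ece1, and the group means share the step at 336 h. For Agtr1a (1384240_at) the nearest were Id1 (r = 0.79), Glcci1 (r = 0.79) and Leng8 (r = 0.78), and 0 passed 0.9.

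The wider systems were read through 7 lists of 61 other genes: renin-angiotensin, endothelin, adrenomedullin and CGRP, kinin, nitric oxide and cyclic GMP, other vasoactive peptides, and prostanoid. Of these, 28 genes were measured, by 40 probe sets. In the 12 pairwise and 2 mean contrasts of dose, limma called 0 of them. Of these 560 tests 42, or 7.5%, had an unadjusted p under 0.05, against 5.71% over all probe sets. For the mean effect of 80 mg/kg, 18 of the 40 were higher, with a median of −0.03 log2, where the median of all probe sets tested was −0.003. The smallest adjusted p, 0.0687 in limma, was that of a probe set of Cav1, the caveolin that binds and inhibits Nos3. This probe set differed by −0.16 for the mean effect of 80 mg/kg, and the gene was chosen after its value was seen. The other Cav1 probe sets differed by −0.11 and −0.10 there, with adjusted p-values of 0.633 and 0.923 in limma.

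Between times in vehicle, 1 of the 40 was called, against the 8.05% above. This was Enpep 1368512_a_at, of aminopeptidase A, which turns angiotensin II into angiotensin III. Its vehicle means were 9.10 ± 0.14, 9.14 ± 0.16, 9.02 ± 0.13 and 8.55 ± 0.46 log2 at 6, 24, 168 and 336 h (SD, n = 4, 6, 5 and 5), and limma gave an adjusted p of 0.0251. It was lowest at the time when Nos3 and Ece1 were highest. The other Enpep probe set, 1368513_at, had 8.05, 8.32, 8.16 and 8.02 and did not pass (adjusted p = 0.406 in limma).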

How the data were processed

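Signals came from GCOS with the MAS5 method, per the submitters' processing notes, with versions and scaling target not given in the sources used here. Each deposited value is a linear intensity of a probe set on an array. Because the deposited signals had unequal scales (trimmed means of 82.9 to 246 per array), log2 signals were quantile normalized, with the signals as deposited as an alternative. Genes came from the platform's annotation. limma 3.58.1 in R 4.3.3 was fitted with 12 group means over 62 arrays and 18625 probe sets (50 residual degrees of freedom). P-values were two-sided and adjusted by Benjamini-Hochberg across the array within each test, and adjusted values under 0.05 count as calls. The number of arrays limits the precision. The procedure was tested on simulated data. The members, the lists and the contrasts were chosen with earlier results of these data known. All members are named whatever their p, genes of the 7 lists where called, and for likeness the 3 nearest genes of the 3 members with the smallest p between the 12 groups. Alternatives covered the scaling, the filter, an offset for dim signals, the replicate block, array clusters as a block, array weights, fits within each time, arrays with Myl7 above 9 left out and each array left out. Array clusters came from k-means on the first 2 principal components. Replicate numbers were checked for pairing: 52 pairs of arrays of equal number and time had correlations from −0.26 to 0.34 (median 0.007), with 14 above 0.1. Of the 62 arrays, 19 correlated best with an array of their own number. These values do not settle whether arrays of equal number share more than the number, and the main fit did not use it.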

Additional observations from a re-analysis of the deposited data

Results flagged for a closer look

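Of 120 combinations of probe set and group, 12 (10%) held 1 array separated from the others by a gap that Dixon's criterion marks at the 95% level. In 10 of the 12 the array was the lowest of its group. The criterion's rate of about 1 in 20 is for normally distributed values, and the share over all probe sets was not taken. The 10% was therefore not read as an excess. All values here are log2 signals. Ace 1387791_at stood low at 3.05 on 1 array of 80 mg/kg and 336 h (replicate 4, the next at 5.29) and at 2.41 on 1 vehicle array of 168 h (replicate 2, the next at 5.48). The same vehicle array was low in Agt, at 4.31 with the next at 6.53. Its median deposited signal over all probe sets, 31.1 on the linear scale, was the lowest of the 62 arrays. Agtr1a 1369291_at was low at 3.08 on 1 array of 80 mg/kg and 6 h and at 3.22 on 1 vehicle array of 336 h. Agtr1a 1384240_at was low at 2.82 on 1 array of 80 mg/kg and 24 h and high at 5.73 on 1 vehicle array of 6 h. Edn1 was low at 5.42 on 1 array of 10 mg/kg and 336 h and high at 6.34 on 1 vehicle array of 6 h. Nos3 was low at 6.09 on 1 vehicle array of 24 h. Bdkrb2 1370649_at was low at 5.68 on 1 array of 80 mg/kg and 336 h and at 5.17 on 1 array of 10 mg/kg and 24 h. The cause of these gaps was not tested.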

How the results depend on the processing

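Under every alternative run, 0 members were called in the 12 pairwise comparisons and the 2 mean effects. The same held for the 2 tests of a dose effect that differs between times. Among the 120 pairwise values the smallest adjusted p was 0.128 in limma, reached on leaving out 1 array. Apart from the fits without 1 array, the pairwise comparisons and mean effects called 0% to 1.25% of all probe sets. A count of 0 therefore says little about these genes. Signs were less firm: 21 of the 120 turned with the signals as deposited, 17 without the arrays with Myl7 above 9, 13 with clusters of arrays as a block, and at most 9 under any other setting that keeps all 62 arrays. On the deposited scale the median of all probe sets moved by up to 0.37 in a dose comparison against vehicle and up to 0.45 for 336 h against the earlier times. The count of members that differ between times in vehicle (1, Nos3) was 0 with the signals as deposited, 0 with clusters of arrays as a block, 2 with array weights and 2 with the replicate block, which added Ece1; on leaving out 1 array it ran from 1 to 2, with Ece1 added for 11 arrays. The share of all probe sets that the F test between times called was not taken under the alternatives. For another test, 336 h against the earlier times in vehicle, the share also moved with the setting. It was 0.0752% as deposited, 0.0644% with the cluster block, 21% with array weights and 13.2% with the replicate block. These shares are not those of the F test, so its counts of members were not read as setting them apart. In limma's F test between times in vehicle, Nos3 had adjusted p = 0.419 on the deposited scale and 0.817 with the cluster block. Within 10 and 80 mg/kg its call was lost with arrays centred on their medians (0.0569 and 0.0528), at 80 mg/kg without the filter (0.0625), and on leaving out replicate 1 of 336 h (0.0538 and 0.0989). The 336 h contrast of Ece1 in vehicle was lost with median centring (0.0528), and those of Nos3 and Ece1 in vehicle and at 80 mg/kg with the signals as deposited. The replicate block changed no other call. The planned cut on the actin 3′ to 5′ difference left out 0 arrays and gives no value; a lower one chosen after seeing the data left out 3 and changed no call. The causes of these changes were not tested.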
